A study of Mus musculus with 10 samples.

Results

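Transcripts of 9 transcriptional regulators associated with upper-layer and callosal neurons, Cux1, Cux2, Pou3f1, Pou3f2, Pou3f3, Lmo4, Bhlhe22, Rorb and Mef2c, were measured in sorted cells of the embryonic mouse dorsal telencephalon. The genes were taken by symbol, and all 9 were present among the 14300 genes of the deposited counts. Every one of those genes passed a filter for low counts, so shares of all genes below are shares of this set. The study used these libraries to characterize cells in which Grem1, a secreted antagonist of bone morphogenetic proteins, is active. Every library came from C57BL/6J mice carrying Grem1creERT; Rosa26LSLTdtomato, given tamoxifen 24 h before collection at 14.5 dpc, so the TdTomato- cells shared the alleles, age and treatment of the TdTomato+ cells. Regulatory sequence of Grem1 drove Cre, so the red label depends on Cre activity at the time of tamoxifen and is inherited by daughter cells, and the TdTomato- population held the other live cells of the dissected tissue rather than a defined cell type. There were 5 mouse numbers, 2 to 6, with 1 library of each population per number. The sample descriptions name the tissue as brain and the methods name the dorsal telencephalon without meninges, and whether embryos were pooled within a number is not given in the sources used here.

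Cortical excitatory neurons are born in an inside-out order from radial glia and intermediate progenitors, deep-layer neurons first and upper-layer neurons later, and many upper-layer neurons send axons through the corpus callosum to the other hemisphere. Cux1 and Cux2 encode homeodomain proteins of upper-layer neurons, and Pou3f1, Pou3f2 and Pou3f3 encode related POU-domain factors that act in progenitors and in the production and migration of upper-layer neurons. Lmo4 and Bhlhe22 take part in area identity and projection choice, Rorb is a nuclear receptor of layer IV, and Mef2c is a MADS-box factor of differentiating neurons that is used in several cortical layers. Several of these genes are also transcribed in cells other than upper-layer neurons, Cux2 and the POU factors in progenitors and Mef2c in interneurons, microglia and endothelium.

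Total counts per library were 23429034 to 27286180, so depth differed little between libraries. Grem1 was at 63.3 ± 3.10 CPM, the count scaled to the library total (mean ± SD, n = 5), in TdTomato+ libraries and 6.11 ± 0.73 in TdTomato- libraries, in the direction of the labels in 5 of 5 mice. All CPM below were scaled by trimmed mean of M-values (TMM) factors, and the lowest count of any of the 9 regulators in any library was 321. In bulk RNA, fewer cells of a type and less RNA per cell cannot be told apart. The 2 populations also differed widely in cell makeup. All 8 radial glia markers, all 7 intermediate progenitor markers and all 8 interneuron markers were lower in TdTomato+ libraries, with summed levels of 128 to 176, 50.7 to 80.2 and 46.0 to 72.2 CPM in TdTomato+ libraries against 1572 to 1848, 808 to 1043 and 1397 to 1739 CPM in TdTomato- libraries. Of 7 pallial excitatory neuron markers 6 were higher in TdTomato+ libraries, where they summed to 7138 to 7935 CPM against 2663 to 3513 CPM, and Slc17a6, a vesicular glutamate transporter gene, was the exception. The part of these differences in makeup in the results on the 9 regulators was not tested.

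The regulators split into those that were lower in TdTomato+ cells, Cux1, Cux2, Pou3f1, Pou3f2, Pou3f3 and Lmo4, those that were higher, Rorb and Mef2c, and Bhlhe22, which did not pass the test. A gene was called at a Benjamini-Hochberg adjusted p of 0.05 or less over 14300 genes in the edgeR quasi-likelihood test with the mouse number as a block. By that rule 2 of 9 regulators rose and 6 of 9 fell, beside 37.9% of all genes called higher and 39.4% called lower. With a second condition that the log2 fold change be 2 or more in size, 2 of 9 rose and 4 of 9 fell, beside 3.20% and 9.74% of all genes. Of the 4 that fell, 1, Cux1, was called when TREAT tested the log2 fold change against 2 directly, and 3 remained past the second condition without mouse 2. TREAT called 1 of 9 regulators lower and 2 of 9 higher, beside 1077 and 273 of all 14300 genes. The lower count by TREAT lies near that of all genes and is no result about the regulators. The libraries of the 2 populations did not overlap for 8 of 9 regulators, beside 61.6% of all genes. The median log2 fold change was −1.85 over the regulators and −0.0063 over all genes. The plot of CPM by library shows these groups with the mice joined by lines.

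**Figure D1:**
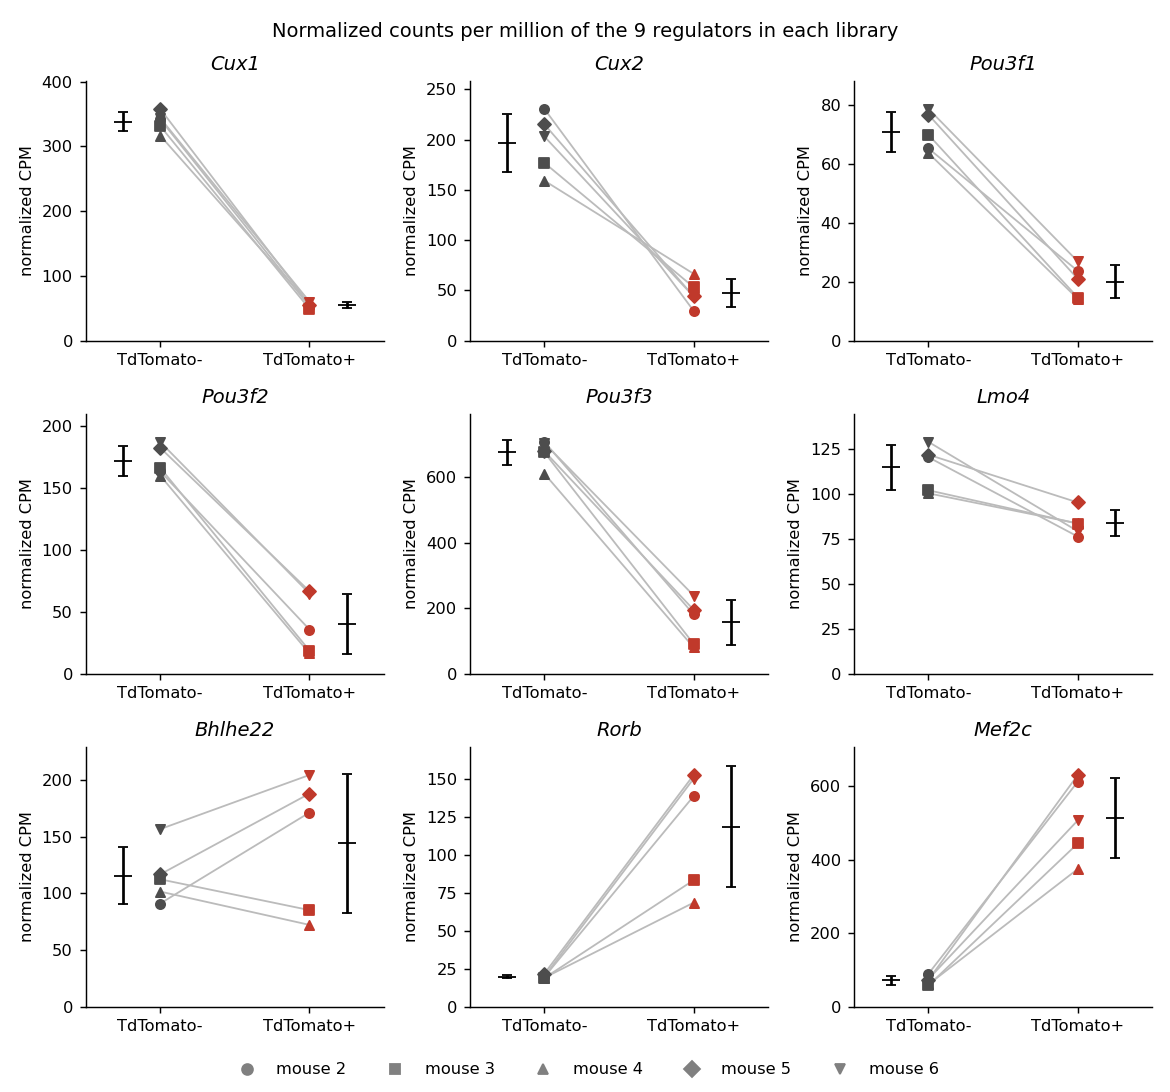
Normalized CPM (vertical axes, each starting at 0) of the 9 regulators in the TdTomato- and TdTomato+ library of each mouse; symbols mark mouse numbers, grey lines join the libraries of 1 mouse, and black bars give the mean and SD (n = 5). Every line falls for Cux1, Cux2, the Pou3f genes and Lmo4, every line rises for Rorb and Mef2c, and the lines of Bhlhe22 rise for mice 2, 5 and 6 and fall for mice 3 and 4.

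Cux1 was the regulator with the largest decrease and the smallest SE. In the order of mice 2 to 6 it measured 53.0, 48.9, 56.2, 55.6 and 60.1 CPM in TdTomato+ libraries and 342, 331, 317, 358 and 344 CPM in TdTomato- libraries. The highest TdTomato+ library was far below the lowest TdTomato- library. The log2 fold change was −2.63 ± 0.05 (SE, n = 5 mice, edgeR adjusted p = 1.59e-09), a 6.19-fold difference, and the log2 ratio within a mouse ranged from −2.76 to −2.49. The gene lies at chr5:136248135-136567490 on the minus strand of GRCm38 and has 14 annotated transcripts. Some of these transcripts encode the Golgi protein CASP instead of the homeodomain protein, and counts per gene do not separate the products. Genes on the other strand overlap 2.0% of its exonic length, and whether the counting used strand is not given in the sources used here.

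Cux2, the closest relative of Cux1 (chr5:121856366-122050102, minus strand), was also lower but varied far more between mice. It measured 29.6, 53.1, 66.4, 43.9 and 43.8 CPM in the TdTomato+ libraries of mice 2 to 6 and 231, 177, 159, 215 and 203 CPM in their TdTomato- libraries. Mice 3 and 4 were the highest of the TdTomato+ libraries and the lowest of the TdTomato- libraries, whereas mouse 2 was the reverse in both, so that the within-mouse ratio ran from −2.96 in mouse 2 to −1.26 in mouse 4. The fitted log2 fold change was −2.08 ± 0.20 (SE, edgeR adjusted p = 1.31e-05). Without mouse 2 it was −1.87, which no longer reached 2 in size. The decrease of Cux1 exceeded that of Cux2 in 4 of 5 mice, by 0.54 ± 0.60 on the log2 scale (mean ± SD of the within-mouse differences), with an exact two-sided sign-flip permutation p of 0.125 (Benjamini-Hochberg over 4 paralog pairs 0.333), where this test of 5 pairs allows no p below 0.062 and could not have passed 0.05.

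The POU-domain genes Pou3f1 (chr4:124656807-124660655, plus strand), Pou3f2 (chr4:22482780-22488366, minus strand) and Pou3f3 (chr1:42695768-42703176, plus strand) are intronless, and all of them were lower in the TdTomato+ library of 5 of 5 mice. Pou3f3 measured 181, 90.7, 79.9, 195 and 238 CPM in TdTomato+ libraries of mice 2 to 6 and 707, 675, 610, 679 and 703 CPM in TdTomato- libraries. Pou3f2 measured 35.6, 18.6, 16.3, 66.5 and 64.7 CPM in TdTomato+ libraries against 163, 166, 160, 182 and 187 CPM. Pou3f1 measured 23.7, 14.6, 14.2, 20.96 and 26.9 CPM against 65.3, 69.9, 63.7, 76.7 and 78.8 CPM. The groups did not overlap for any of the 3 genes, and in each the lowest TdTomato+ libraries were those of mice 3 and 4. The log2 fold changes were −2.22 ± 0.21 for Pou3f3 (edgeR adjusted p = 9.28e-06), −2.28 ± 0.28 for Pou3f2 (edgeR adjusted p = 5.48e-05) and −1.85 ± 0.12 for Pou3f1 (edgeR adjusted p = 6.95e-07).

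The POU genes varied more between mice in the TdTomato+ population than in the TdTomato- population. The coefficient of variation of Pou3f2 was 60.1% over TdTomato+ libraries and 7.06% over TdTomato- libraries, that of Pou3f3 was 43.9% and 5.75%, and that of Pou3f1 was 27.8% and 9.46%, beside medians over all genes of 9.93% and 9.72%. Pou3f2 was more variable among TdTomato+ libraries than 96.7% of all genes. The sizes of the decreases were compared between the 3 genes, although the sign-flip test of 5 pairs allows no p below 0.062 and could not have passed 0.05. The within-mouse log2 ratio of Pou3f1 exceeded that of Pou3f2 by 0.47 ± 0.65 (SD, 3 of 5 mice, exact sign-flip permutation p = 0.25) and that of Pou3f3 by 0.37 ± 0.38 (4 of 5 mice, exact permutation p = 0.188), and Pou3f2 was below Pou3f3 by a mean difference of −0.09 ± 0.28 (3 of 5 mice, exact permutation p = 0.562). The Benjamini-Hochberg values over the 4 paralog pairs were 0.333 for each except the last, 0.562. A p that misses the threshold does not show that the 3 genes fell alike.

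Pou3f3 stands beside noncoding genes that were lower as well. Pantr1, a noncoding gene that lies 926 bp away on the opposite strand, fell from 100.5 ± 7.06 CPM in TdTomato- libraries to 9.67 ± 2.94 CPM in TdTomato+ libraries (log2 fold change −3.41 ± 0.13, edgeR adjusted p = 2.11e-08). Pantr2, 3885 bp away on the opposite strand, was at 4.88 ± 0.80 and 0.30 ± 0.17 CPM (log2 fold change −3.99 ± 0.31, edgeR adjusted p = 2.92e-06). AC122898.1, whose annotated body overlaps Pou3f3 on the same strand without shared exons, was at 5.16 ± 0.23 and 1.83 ± 0.65 CPM (log2 fold change −1.53 ± 0.19, edgeR adjusted p = 7.33e-05). At Pou3f1, Gm2164 overlaps 8.6% of the exonic length on the other strand and was at 1.03 ± 0.41 CPM in TdTomato- libraries and 0.54 ± 0.26 CPM in TdTomato+ libraries. Fbxl4, the measured gene within 100 kb of Pou3f2, had a log2 fold change of 0.18 ± 0.09 and did not pass the test (edgeR adjusted p = 0.0836).

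Lmo4 (chr3:144188530-144205220, minus strand), a LIM-only protein that binds the cofactors Ldb1 and Ldb2 in place of LIM-homeodomain factors, had the smallest decrease among the called regulators. It measured 76.2, 83.4, 83.4, 95.1 and 79.1 CPM in TdTomato+ libraries of mice 2 to 6 and 120, 102, 100.2, 122 and 129 CPM in TdTomato- libraries. The highest TdTomato+ library lay just below the lowest TdTomato- library. The log2 fold change was −0.45 ± 0.07 (SE, edgeR adjusted p = 0.000389), with within-mouse ratios of −0.70 to −0.26. The cofactor Ldb2 was higher in TdTomato+ libraries, at 166 ± 9.56 against 27.8 ± 5.63 CPM (log2 fold change 2.60 ± 0.08, edgeR adjusted p = 6.75e-09), whereas Ldb1 was at 427 ± 19.1 and 426 ± 14.2 CPM and did not pass the test (log2 fold change 0.0034 ± 0.04, edgeR adjusted p = 0.936). Among the other LIM-only genes Lmo3 rose (1.59 ± 0.08) and Lmo1 (−0.54 ± 0.09) and Lmo2 (−1.29 ± 0.15) fell on the log2 scale.

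Bhlhe22 (chr3:18054174-18057517, plus strand), a basic helix-loop-helix repressor of projection neurons, was the regulator whose populations overlapped. It measured 171, 85.3, 72.2, 188 and 205 CPM in the TdTomato+ libraries of mice 2 to 6 and 91.1, 112, 102, 117 and 157 CPM in their TdTomato- libraries. TdTomato+ was higher in mice 2, 5 and 6, with log2 ratios of 0.91, 0.69 and 0.38, and lower in mice 3 and 4, with −0.40 and −0.49. The fitted log2 fold change was 0.23 ± 0.20 (SE, edgeR adjusted p = 0.317), which does not show that the populations were alike. Prdm8, which encodes a partner with which Bhlhe22 acts in axon targeting, rose from 80.5 ± 14.4 to 138 ± 25.4 CPM (log2 fold change 0.78 ± 0.09, edgeR adjusted p = 3.72e-05) and was higher in 5 of 5 mice. Bhlhe23 was not in the table analysed.

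Rorb (chr19:18930605-19111196, minus strand) was low and even in TdTomato- libraries and higher in every TdTomato+ library. It measured 139, 83.3, 68.5, 153 and 150.2 CPM in TdTomato+ libraries of mice 2 to 6 and 19.5, 18.8, 19.0, 21.7 and 19.9 CPM in TdTomato- libraries. The lowest TdTomato+ libraries, again mice 3 and 4, stayed far above the highest TdTomato- library. The log2 fold change was 2.52 ± 0.16 (SE, edgeR adjusted p = 6.19e-07), a 5.73-fold difference. The related nuclear receptor gene Rora went the opposite way. It fell from 8.06 ± 4.11 to 0.69 ± 0.31 CPM (log2 fold change −3.48 ± 0.28, edgeR adjusted p = 3.16e-06).

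Mef2c (chr13:83504034-83667080, plus strand) had the largest increase of the regulators. It measured 612, 444, 375, 630.3 and 507 CPM in TdTomato+ libraries of mice 2 to 6 and 89.5, 57.9, 60.6, 73.1 and 75.2 CPM in TdTomato- libraries. The groups lay far apart, and the within-mouse log2 ratio stayed between 2.63 and 3.11. The log2 fold change was 2.84 ± 0.07 (SE, edgeR adjusted p = 2.93e-09), a 7.16-fold difference. The related genes Mef2a (0.58 ± 0.08) and Mef2d (0.60 ± 0.05) rose less on the log2 scale, and Mef2b was not in the table analysed. The class IIa histone deacetylases, which bind and repress MEF2 proteins, did not move together, since Hdac5 rose (0.58 ± 0.05) and Hdac4 (−0.41 ± 0.06) and Hdac9 (−2.93 ± 0.11) fell on the log2 scale.

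Mef2c is also transcribed in microglia, endothelium and interneurons, whose markers were measured in the same libraries, and the part of those cells in the Mef2c values was not tested. The 5 measured microglial markers (of 7 listed) summed to 0.73 to 1.45 CPM in TdTomato+ libraries and 12.6 to 58.6 CPM in TdTomato- libraries, with C1qa at 0 to 2 counts per TdTomato+ library. The 3 measured endothelial markers (of 7 listed) summed to 1.72 to 3.13 CPM in TdTomato+ libraries and 2.61 to 4.44 CPM in TdTomato- libraries, and 1 of them fell and 2 did not pass the test, of which Esam was higher in 4 of 5 mice (log2 fold change 0.31 ± 0.28). All 8 interneuron markers fell, as did all 4 erythroid genes, which summed to 1.04 to 19.3 and 67.2 to 231 CPM, and all 6 Cajal-Retzius markers, which summed to 128 to 165 and 227 to 426 CPM.

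**Figure D2:**
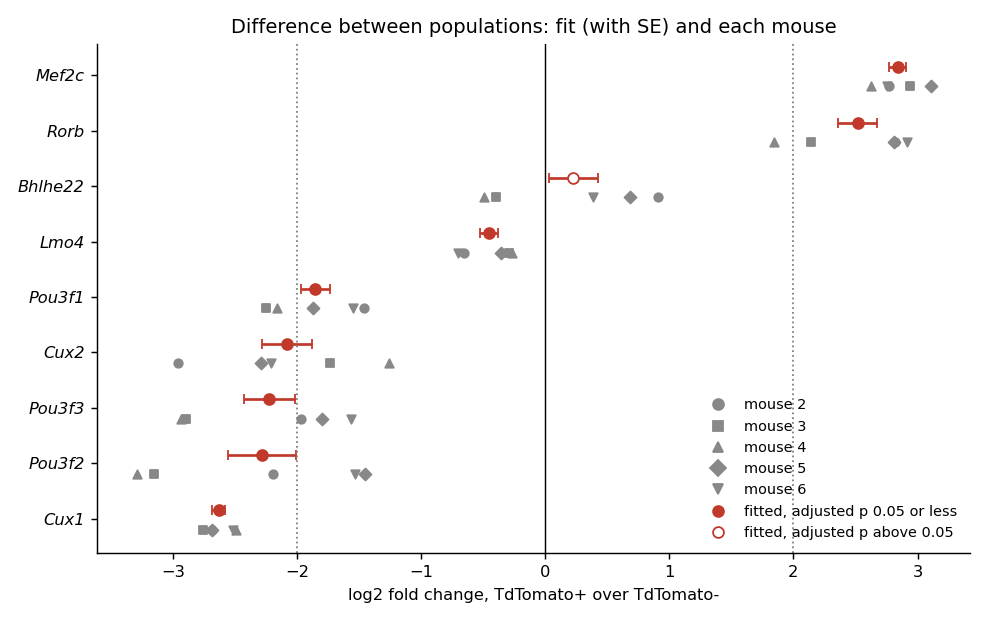
Fitted log2 fold change of TdTomato+ over TdTomato- cells (horizontal axis) of each regulator with its SE (red; open where the adjusted p was above 0.05), and the log2 ratio of each mouse (grey symbols); dotted lines mark −2 and 2. Cux1 and Mef2c, at −2.63 and 2.84, have tightly grouped mice, while the mice of Cux2, Pou3f2, Pou3f3, Bhlhe22 and Rorb spread over more than 1 log2 unit.

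Mef2c and Cux2 were the regulators whose promoters held any of the short motifs searched, and these stretches are printed so that the matches can be seen in place. RefSeq promoter windows (GRCm38.p6, 250 bases before to 50 bases after a start) were found for 7 of 9 regulators, 13 windows in all, and Pou3f1 and Bhlhe22 were not matched. The motifs, read on both strands, were the POU octamer ATGCAAAT, the ROR half-site AGGTCA, the E-box CATATG of basic helix-loop-helix factors and the CUX site ATCGAT, and no motif contains another. They occur in 1.74%, 16.3%, 3.91% and 0.925% of all 32851 promoter windows. Bases in annotated exons were left out, matches are in capitals, each line runs 5′ to 3′ on the strand of the gene, and TGACCT is AGGTCA read on the other strand. The CUX site lies in Cux2 promoter 2 (chr5:122047892-122048075, minus strand), the E-box in Mef2c promoter 1 (chr13:83503784-83504033), 1 ROR half-site in promoter 2 (chr13:83523406-83523472) and 2 in promoter 3 (chr13:83573357-83573606), all on the plus strand for Mef2c.
Cux2 promoter 2: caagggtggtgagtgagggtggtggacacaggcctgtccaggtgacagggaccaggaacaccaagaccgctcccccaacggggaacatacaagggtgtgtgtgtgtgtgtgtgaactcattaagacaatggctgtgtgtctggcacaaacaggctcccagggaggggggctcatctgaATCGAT
Mef2c promoter 1: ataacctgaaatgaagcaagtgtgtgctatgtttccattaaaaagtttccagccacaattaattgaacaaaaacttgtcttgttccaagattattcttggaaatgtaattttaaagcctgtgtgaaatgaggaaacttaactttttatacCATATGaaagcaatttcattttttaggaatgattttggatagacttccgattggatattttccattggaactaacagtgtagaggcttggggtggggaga
Mef2c promoter 2: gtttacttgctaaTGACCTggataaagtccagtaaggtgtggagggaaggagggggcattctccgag
Mef2c promoter 3: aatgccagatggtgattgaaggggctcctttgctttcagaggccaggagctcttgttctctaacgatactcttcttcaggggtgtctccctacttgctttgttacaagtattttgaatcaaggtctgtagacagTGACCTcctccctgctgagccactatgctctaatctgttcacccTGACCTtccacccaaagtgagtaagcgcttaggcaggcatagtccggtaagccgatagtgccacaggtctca

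These matches describe letters and not binding, and counts per gene do not say which start was used. None of the windows of Cux1, Pou3f2, Pou3f3, Lmo4 and Rorb held the letters searched. The windows also differed in CpG content, with 1, 10 and 4 CG dinucleotides in the windows of Mef2c, 20 and 5 in those of Rorb, 25 in that of Cux1, 48 and 4 in those of Cux2, 24 in that of Pou3f2, 18 in that of Pou3f3 and 52, 30 and 31 in those of Lmo4, beside a median of 7 over all windows.

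Levels of different genes were set side by side as RPKM, here TMM-scaled CPM per kilobase of all annotated exons of a gene. In TdTomato- cells Pou3f3 stood alone at the top (91.1 ± 5.24 RPKM, mean ± SD). Bhlhe22 (34.6 ± 7.48), Lmo4 (32.5 ± 3.62) and Pou3f2 (30.8 ± 2.17 RPKM) followed with overlapping ranges, then Cux2 (19.5 ± 2.86), Pou3f1 (18.4 ± 1.74) and Cux1 (16.9 ± 0.77 RPKM), also with overlapping ranges, and then Mef2c (4.53 ± 0.81) and Rorb (1.79 ± 0.10 RPKM), each apart from its neighbours. The order in TdTomato+ cells was different.

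In TdTomato+ cells Bhlhe22 had the highest mean level (43.2 ± 18.3 RPKM), followed by Mef2c (32.7 ± 6.94), Lmo4 (23.6 ± 2.04), Pou3f3 (21.2 ± 9.29), Rorb (10.7 ± 3.59), Pou3f2 (7.22 ± 4.34), Pou3f1 (5.21 ± 1.45), Cux2 (4.70 ± 1.35) and Cux1 (2.73 ± 0.21 RPKM). The ranges of all neighbours in this order overlapped, but within single TdTomato+ libraries Mef2c was above Lmo4, Pou3f3 above Rorb, Rorb above Pou3f2 and Cux2 above Cux1 in 5 of 5. The other neighbours changed places between libraries. Mef2c moved from rank 8 to rank 2 and Cux1 from rank 7 to rank 9. The order depends on the length used for genes with many transcripts. With the longest transcript as the length Mef2c was first in TdTomato+ cells at 81.8 RPKM, Lmo4 second at 50.004 RPKM and Bhlhe22 next at 43.2 RPKM, while in TdTomato- cells Pou3f3 stayed first, Lmo4 rose to 68.6 RPKM and Cux1, at 26.3 RPKM, moved to rank 5, above Cux2 (22.4) and Pou3f1 (18.4 RPKM).

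**Figure D3:**
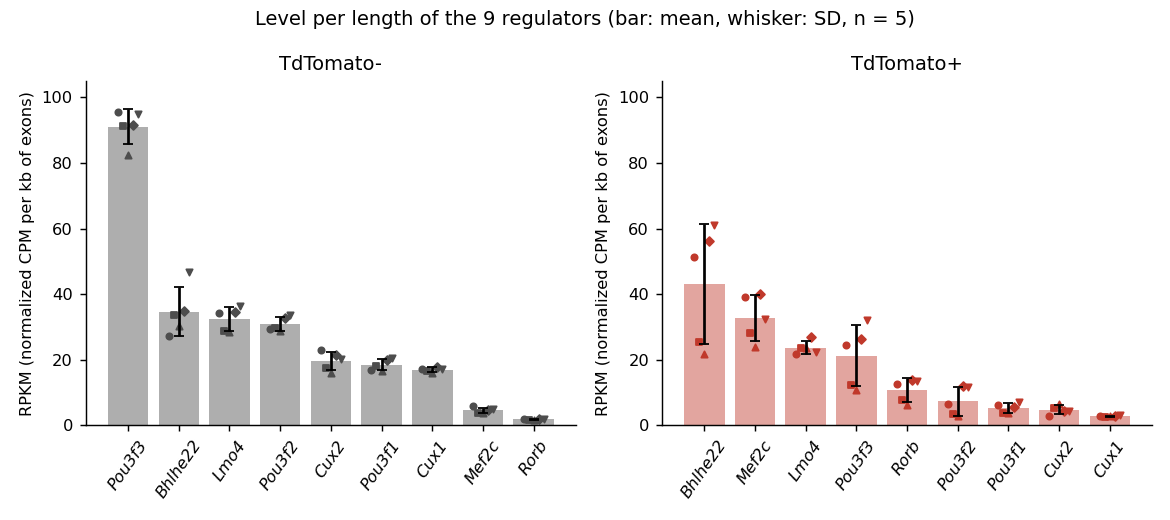
RPKM (vertical axes, from 0) of the 9 regulators in TdTomato- (left) and TdTomato+ libraries (right), ordered by mean; bars give means, whiskers SD (n = 5) and symbols single libraries with the mouse symbols of the CPM plot. Pou3f3 leads at 91.1 RPKM on the left, and on the right Bhlhe22 and Mef2c lead at 43.2 and 32.7 RPKM.

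The differences between mice within the TdTomato+ population had a common order across most of the regulators, which was noticed after the values had been seen. Mice 3 and 4 gave the lowest TdTomato+ libraries for 6 of 9 regulators, Pou3f1, Pou3f2, Pou3f3, Bhlhe22, Rorb and Mef2c, beside 19.6% of all genes with that order. They gave the highest TdTomato+ libraries for 1 of 9, Cux2, beside 19.6% of all genes. Cux1 and Lmo4 had neither order. From the mean log2 CPM of the 5 TdTomato+ libraries, Pou3f2 deviated by −0.87 and −1.06 in mice 3 and 4 and by 0.96 and 0.92 in mice 5 and 6, and Bhlhe22 deviated by −0.63 and −0.87 against 0.51 and 0.63. Regulators that fell and regulators that rose between the populations thus shared this order among mice.

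In TdTomato- libraries mice 3 and 4 were also the lowest for 6 of 9 regulators, beside 16.2% of all genes, but these were Cux1, Cux2, Pou3f3, Lmo4, Rorb and Mef2c, and the deviations reached −0.29 at most, in Cux2 of mouse 4. They were the highest for 0 of 9, beside 17.3% of all genes. Some marker sums of the TdTomato- libraries moved with this order and others did not. Mice 3 and 4 had the lowest microglial sums (12.6 and 16.9 CPM against 43.9 to 58.6) and the highest Cajal-Retzius sums (364 and 426 CPM against 227 to 289). They had the lowest interneuron sums by a small margin (1397 CPM in each against 1417 to 1739) and the lowest erythroid sums (67.2 and 92.6 CPM against 98.3 to 231). Mice 3 and 4 were not together the lowest or the highest in radial glia (1759 and 1572 CPM) or intermediate progenitor sums (973 and 816 CPM). Nor were they in excitatory neuron (3276 and 3407 CPM) or endothelial sums (3.73 and 2.61 CPM). The TdTomato+ libraries of mice 3 and 4 had 24545138 and 23951001 counts, the first of these the deepest TdTomato+ library, against 23429034 to 24382619 in the others. Their summed radial glia markers, at 165 and 142 CPM, lay within the range of the other TdTomato+ libraries, and their summed intermediate progenitor markers were at 80.2 and 68.2 CPM. They had the highest summed interneuron markers of the TdTomato+ libraries, at 71.5 and 72.2 CPM, and the highest summed excitatory neuron markers, at 7935 and 7808 CPM. Their summed erythroid genes were also the highest, at 7.07 and 19.3 CPM against 1.04 to 4.34 CPM. Of the other upper-layer and callosal genes 12 of 28 had mice 3 and 4 as the lowest TdTomato+ libraries and 9 of 28 as the highest. Of the deep-layer genes 11 of 21 had them as the lowest and 4 of 21 as the highest. Over all genes the share was 19.6% for each order in TdTomato+ libraries, which the 4 of 21 lies near. The labels give no date or batch, and the part of these marker differences in the order of the mice was not tested.

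**Figure D4:**
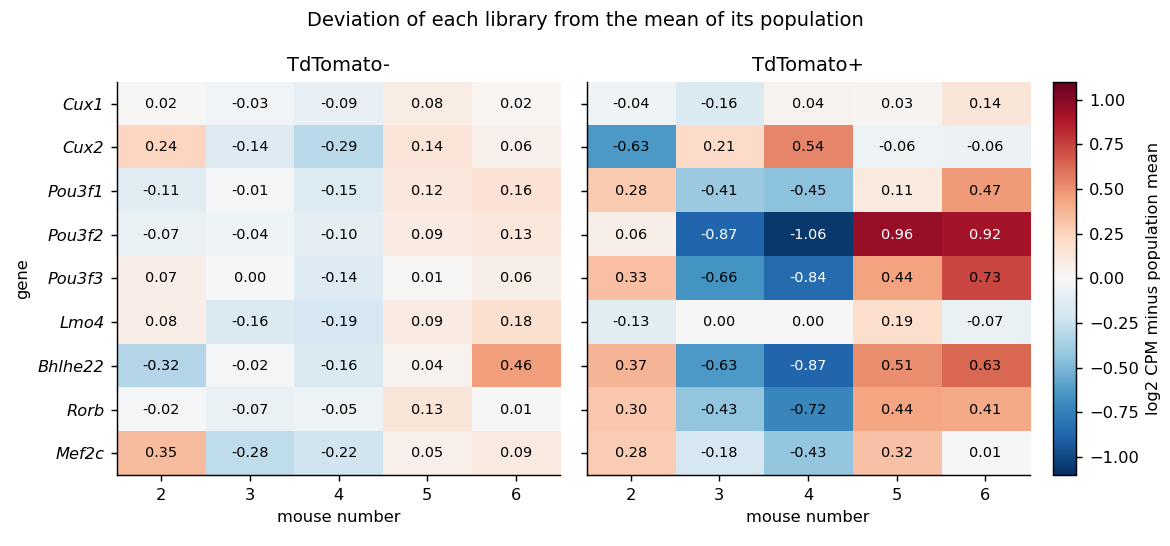
Deviation of the log2 CPM of each library from the mean of its population (color and printed value), for the 9 regulators (rows) and mice 2 to 6 (columns), TdTomato- on the left and TdTomato+ on the right. In TdTomato+ cells the columns of mice 3 and 4 are negative from Pou3f1 to Pou3f3 and from Bhlhe22 to Mef2c and positive for Cux2 (0.21 and 0.54).

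Other genes of upper-layer and callosal neurons were counted in the same fit. Of 30 listed symbols 28 were measured, Hspb3 was not in the table, and Pvrl3 is an older symbol of Nectin3, which was measured. Of these 28 genes 13 rose, 12 fell and 3 did not pass the test, with a median log2 fold change of 0.08. The shares lie near the 37.9% of all genes called higher and the 39.4% called lower, so the counts are no result about this list. Lpl, a lipoprotein lipase used as a callosal neuron marker, had the largest increase among list members with a mean log2 CPM of at least 3, from 8.68 ± 3.19 to 88.1 ± 9.41 CPM (log2 fold change 3.38 ± 0.14, edgeR adjusted p = 4.07e-08). Lhx2, a LIM-homeodomain factor of cortical progenitors and upper-layer neurons, had the largest decrease by the same rule, from 432 ± 48.8 to 70.8 ± 23.7 CPM (log2 fold change −2.67 ± 0.14, edgeR adjusted p = 1.62e-07). Unc5d, a netrin receptor of upper-layer precursors that was picked after its values were seen, fell (−2.64 ± 0.13 on the log2 scale).

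Deep-layer genes were mostly higher in TdTomato+ cells. The list was written with earlier results of these data known, so its counts are a description. Of 21 measured of 22 listed, 15 rose, 3 fell (5 without mouse 6) and 3 did not pass the test, with a median log2 fold change of 1.57, beside the 37.9% and 39.4% of all genes. Among list members with a mean log2 CPM of at least 3, Ntsr1, a neurotensin receptor of layer VI corticothalamic neurons, had the largest increase (9.45 ± 0.42 to 93.0 ± 17.3 CPM, log2 fold change 3.28 ± 0.10, edgeR adjusted p = 8.39e-09). Etv1, a factor of layer V neurons, had the largest decrease among those members (22.05 ± 2.17 to 5.59 ± 2.10 CPM, log2 fold change −2.03 ± 0.14, edgeR adjusted p = 1.50e-06). Below that level Diaph3, a formin gene named after its values were seen, fell further (13.4 ± 2.29 to 0.84 ± 0.42 CPM, log2 fold change −4.01 ± 0.25, edgeR adjusted p = 6.59e-07). Of the 14 measured paralogs and partners of the regulators, of 16 listed, 6 rose, 7 fell and 1 did not pass the test, with a median of −0.20. The shares lie near the 37.9% and 39.4% of all genes, so the counts are no result about these paralogs and partners. The largest decrease among those with a mean log2 CPM of at least 3 was that of Pou3f4, the fourth class III POU gene, from 63.5 ± 5.49 to 5.72 ± 2.05 CPM (log2 fold change −3.49 ± 0.18, edgeR adjusted p = 1.50e-07).

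**Figure D5:**
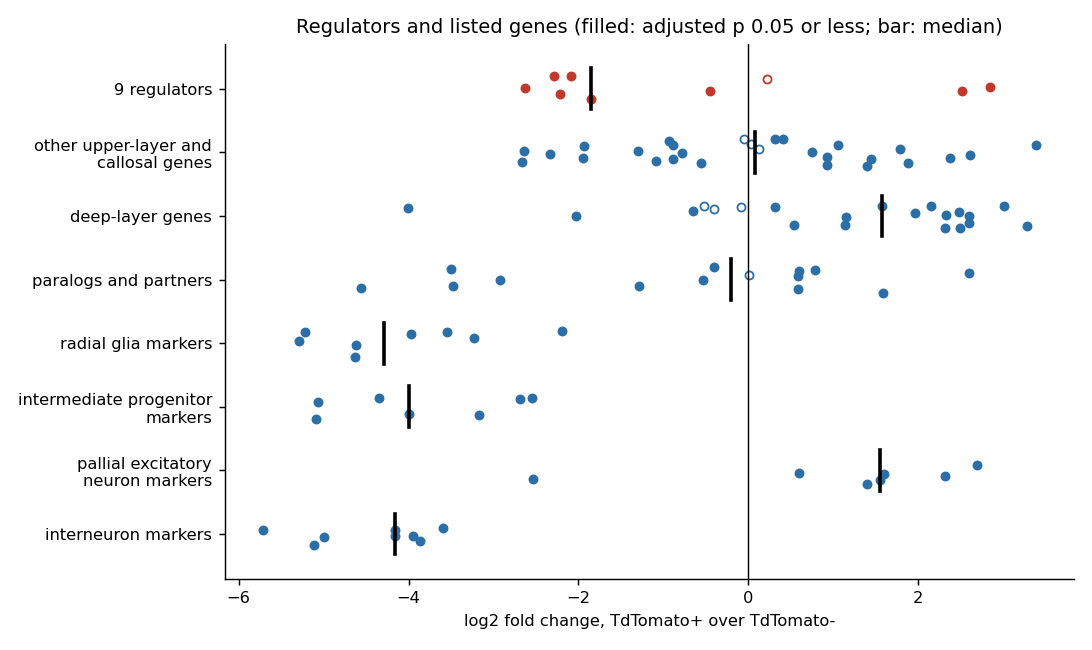
Log2 fold change of TdTomato+ over TdTomato- cells (horizontal axis) of the 9 regulators (red) and of listed genes (blue), 1 point per gene, filled where the adjusted p was 0.05 or less, with the median as a black bar. The regulators and the other upper-layer and callosal genes lie on both sides of 0 (medians −1.85 and 0.08), deep-layer genes lie mostly above (1.57), and all radial glia, intermediate progenitor and interneuron markers lie below.

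Over the 10 libraries, the genes with the most similar log2 CPM profile differed between regulators that fell. The points share the population difference, so Pearson's r is given as a description, and it does not compare the sizes of changes. For Cux1 they were Rcc2 and Ptbp1 (r = 0.999 for each), the latter a splicing repressor that is lost as neurons differentiate. For Cux2 they were Srebf1 (r = 0.995) and Bcor (0.994), for Pou3f1 Insm1 (0.997), a factor of neurogenic progenitors, and Idh2 (0.995), and for Pou3f3 Ezr (0.995) and Pard3 (0.991), which encode proteins of the apical side of radial glia. For Pou3f2 they were Pou3f3 itself (0.987) and Nedd9 (0.987), so a regulator was nearest to another regulator in this case. Lmo4 was most like Slc6a11 (0.985) and Git2 (0.965).

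Of the regulators that rose, Rorb was most like Slitrk5 (r = 0.997) and Kctd12 (0.995), and Mef2c was most like Arfgef3 (0.999) and Gnb4 (0.998), the last also in the upper-layer and callosal list. The nearest profiles of Bhlhe22 were those of Use1 (0.938) and Glrx2 (0.932), the lowest r of any regulator. A high r did not mean a change of like size. Slitrk5 and Kctd12 had log2 fold changes of 1.09 and 2.88 beside 2.52 for Rorb. Arfgef3 and Gnb4 had 1.90 and 1.45 beside 2.84 for Mef2c. The log2 fold changes of Use1 and Glrx2 were 0.06 and 0.09 beside 0.23 for Bhlhe22.

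Genes within 100 kb of the other regulators showed no common direction. Beside Cux1, Orai2 (0.97 ± 0.06) and Sh2b2 (0.49 ± 0.04) rose while Prkrip1 (−0.20 ± 0.06) and Gm38082, within the Cux1 body at 0.97 CPM in TdTomato- libraries, fell (−1.72 ± 0.35). Beside Cux2, Sh2b3 (−1.36 ± 0.16) and Pheta1 (−0.22 ± 0.06) fell, and Atxn2 (−0.05 ± 0.04) did not pass the test. Beside Pou3f1, Fhl3 (−2.79 ± 0.28), Sf3a3 (−0.82 ± 0.06), Utp11 (−0.34 ± 0.05) and Gm2164 (−0.93 ± 0.23) fell and Inpp5b (0.21 ± 0.05) rose. None of these 3 loci had all of its measured neighbours called in the direction of the regulator. Beside Mef2c, C130071C03Rik, the host gene of a miR-9 precursor, rose (0.37 ± 0.08) at 339 ± 26.5 CPM in TdTomato+ libraries, Gm33366 rose (1.36 ± 0.26) and Gm26803 fell (−1.51 ± 0.22). Gm43445, which overlaps Lmo4 on the same strand without a shared exon, and Cyp7b1 beside Bhlhe22 did not pass the test, and Rorb had no measured gene within this distance. All values here are log2 fold changes with SE.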

How the data were processed

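Polyadenylated RNA of sorted cells was sequenced, 5 libraries of each population, after tamoxifen at 13.5 dpc. The authors trimmed reads, mapped them to GRCm38 with STAR allowing 1 mismatch, and deposited raw counts per gene of reads with a unique position. STAR 2.4.2a and edgeR 3.28.0 are named in the submitters' processing notes. The annotation release and counting strand are not given in the sources used here, so overlapping genes are uncertain. The sample descriptions and the methods name different library kits, sequencers and read lengths, and which applies was not settled. All 14300 genes passed filterByExpr, and symbols came from GENCODE, which matched 14271 of them.

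Counts were tested with edgeR 4.0.16 in R 4.3.3 (TMM, glmQLFit, glmQLFTest, prior count 0.125, mouse number as a block as in the study), with Benjamini-Hochberg adjustment. SE is the absolute log2 fold change over the square root of F. Log2 CPM used a prior count of 2. Deviations of same-numbered libraries from their population means correlated across genes at 0.186 to 0.316 and those of different numbers at −0.312 to 0.212. Libraries of a population differed beyond sampling noise (chi-square per degree of freedom of 4.53 to 32.8). Whether they stem from separate animals rests on the study's description, and p-values otherwise measure only the spread between these samples.

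Alternatives were DESeq2 1.42.0, RLE or upper-quartile scaling, leaving out the count filter, requiring over 1 CPM in at least 5 libraries, no block, TREAT against a log2 fold change of 2, robust estimation, a prior count of 2, each mouse left out, and for levels, profiles and paralogs another length, scaling or prior count of 0.5. The regulators and the gene lists were chosen with earlier results of these data known. Named genes were the regulators, the largest increase and decrease of each list among genes with a mean log2 CPM of 3 or more and an adjusted p of 0.05 or less, the measured paralogs and partners, the 2 nearest profiles of each regulator, and neighbours within 100 kb, with exceptions stated. Protein sequences were not used here. Not every gene so chosen is named in the text, but all remain in the list counts.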

Additional observations from a re-analysis of the deposited data

How the results depend on the processing

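The direction of each regulator and its side of the adjusted p threshold of 0.05 were kept under all alternatives listed in the processing summary that test for any difference. Without the replicate block, Bhlhe22 had a log2 fold change of 0.32 (edgeR adjusted p = 0.306), Pou3f2 −2.09 and Pou3f3 −2.10, 2 regulators were called higher and 6 lower, and the block changed no call of a regulator. Tested by TREAT against a log2 fold change of 2, Cux2 (−2.08, adjusted p = 1), Pou3f2 (−2.28, adjusted p = 0.490) and Pou3f3 (−2.22, adjusted p = 0.443) were not called. This leaves 1 regulator lower, Cux1, where 4 passed both thresholds, and Rorb and Mef2c higher. By TREAT 1077 of all 14300 genes were lower and 273 higher. Over the fits that leave out 1 mouse, Cux2 had log2 fold changes of −2.29 to −1.87, under 2 in size only without mouse 2, Pou3f2 of −2.51 to −2.05, Pou3f3 of −2.39 to −2.05 and Bhlhe22 of 0.053 to 0.40, and the regulators lower past both thresholds numbered 3 to 4. The deep-layer genes called lower numbered 3 to 5, with 5 without mouse 6. The adjusted p of Bhlhe22 ranged from 0.0655 to 0.808 over its alternatives other than TREAT, which gave 1. The longest transcript in place of all exons moved the RPKM of Cux1, Cux2, Lmo4, Rorb and Mef2c beyond 1 SD in at least 1 population, and plain library sizes those of Cux1, Pou3f3 and Rorb in TdTomato- cells. No count filter changed nothing, since no gene of the table failed the filter.

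The exact sign-flip test of 5 pairs allows no p below 0.062, so by this test differences between paralogs could not pass 0.05. TdTomato- cells are a mixture, so each fold change is relative to that mixture. Splice forms, promoter use and cell makeup were not resolved here.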
